A study of Coturnix japonica with 29 samples.

Results

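The 200 genes whose read share varied least between libraries were examined in RNA sequencing of quail blood. The samples were the red cell fraction from adult females of the Japanese quail, Coturnix japonica. They were chosen from 5852 genes with a median of 10 to 1000 CPM (the read count divided by the library total and multiplied by 1000000) over the 19 libraries of saline-injected females. Within these 5852, the 200 had the smallest standard deviation (SD) of log2(CPM + 1) over all 29 libraries. They were 3.42% of the genes in that level range, called the CPM window here, and 0.928% of the 21561 genes in the table. Every value below that concerns their spread or their response to LPS was therefore part of the choice and is given as a description. Calls among the 200 are counted beside those over all genes only to describe them, and tests carry a result only for lists chosen in libraries other than those they are described in.

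Females received saline or LPS (lipopolysaccharide, a molecule of the Gram-negative bacterial surface that sets off innate immune responses), and blood was drawn after 3 h in the company of a male. In the control group M_SAL (9 libraries) both the female and her male had received saline. In M_LPS (10 libraries) the female had received saline and the male LPS. In F_LPS (10 libraries) the female had received LPS and the male saline. The sources used here give no LPS dose, strain or exact age. Library totals ran from 8898747 to 14366101 reads.

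Bird red cells, unlike those of mammals, keep their nucleus and go on making RNA in the circulation, and blood can therefore be sampled for gene expression without white cells being isolated. Reference genes are genes whose level is taken as fixed, so that the level of another gene can be given relative to them, as in quantitative PCR. A reference gene that itself moves with the treatment shifts every value divided by it, which matters in LPS studies, where an immune response can change many transcripts at once. The files pair no Ensembl identifier with a symbol, and 0 of the 21561 identifiers were matched to the reference table of quail genes. The genes are therefore given by identifier or by rank in order of increasing SD, with no function, position or sequence. For the same reason the red cell label could not be checked against marker genes. In a bulk sample, fewer cells of a type and less RNA per cell cannot be told apart.

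M_SAL replicates 1 and 3 stood apart from the other M_SAL libraries in the 169 genes called higher in F_LPS than in M_SAL (edgeR adjusted p below 0.05). These genes took 3.14% and 3.69% of the reads of replicates 1 and 3, against 1.42% to 1.86% in the other M_SAL libraries. In F_LPS they took 2.70% to 8.25%. The genes were called in these same libraries, so their larger share in F_LPS follows from the choice and is a description. In the 200 stable genes M_SAL replicate 3 had the largest root mean square deviation of its group, 0.231, and M_SAL replicate 1 was at 0.178, inside the range of 0.131 to 0.195 of the other M_SAL libraries. Without both libraries, 169 of the 200 genes would still be chosen, and the intervals of all 200 under LPS injection stayed inside 1.5-fold. Narrow intervals follow largely from the choice of these genes for small spread.

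The SD of the 200 genes ran from 0.132 to 0.196 log2 units, with a median of 0.182. The median over all genes of the CPM window was 0.352, and the range there reached 3.31. The last gene taken in and the first gene left out, at ranks 200 and 201, had SDs of 0.1965 and 0.1966, so the boundary marks no step between the genes on either side of it. The highest library of a gene exceeded its lowest by a median of 1.67-fold, from 1.37-fold to 2.16-fold. This ratio was under 2-fold for 198 of the 200 genes and for 13.7% of the genes in the window. None of the 200 had a library without reads, and their lowest count in any library was 139. Together they took 3.16% to 4.05% of the reads of a library.

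**Figure D1:**
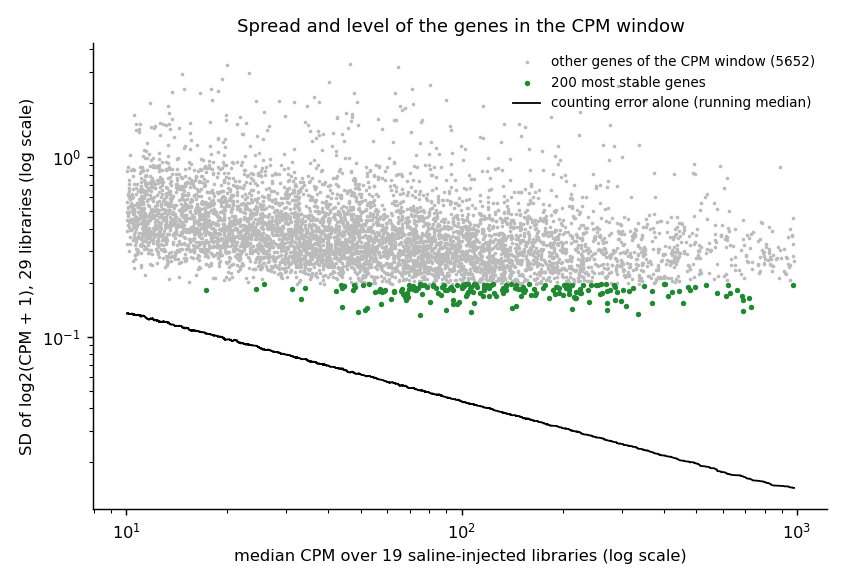
Each point is 1 gene of the CPM window. The x axis is the median CPM over the 19 saline-injected libraries and the y axis the SD of log2(CPM + 1) over all 29 libraries, both on log scales. Green points are the 200 most stable genes, with SDs of 0.132 to 0.196, grey points the rest, and the black line is the running median of the SD that counting error alone would give; the green points lie above the line.

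Counting error was a small part of this spread. Reads drawn at random would give the 200 genes an SD of 0.0142 to 0.103, depending on their count. This counting variance made up a median of 4.48% of the observed variance, and at most 31.8%. Over the window the median was 2.835% and the highest 33.05%. A choice for small observed variance raises this share, so it is given as a description. The rest of the variance exceeded what read counting gives. Counting error covers the drawing of reads only, not the steps before sequencing.

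The 200 genes lay at higher read levels than the window they came from. Their median CPM ran from 17.3 to 970, with a median of 126, against 49.8 for the window. Of 2934 window genes at 10 to 50 CPM, 16 were among the 200, or 0.545%. The share was 4.32% at 50 to 100 CPM (55 of 1274), 6.71% at 100 to 200 CPM (64 of 954), 9.80% at 200 to 500 CPM (53 of 541) and 8.05% at 500 to 1000 CPM (12 of 149). The smallest SD was nearly the same in each level class, from 0.132 to 0.140, while the median SD of the class fell from 0.404 in the lowest to 0.283 at 200 to 500 CPM. CPM is not corrected for gene length, so these levels rank genes by reads and not by RNA molecules.

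The most stable gene was ENSCJPG00005020751, with an SD of 0.132. Its lowest, median and highest library stood at 68.6, 74.4 and 91.9 CPM in M_SAL, at 65.6, 77.7 and 92.8 CPM in M_LPS, and at 64.5, 80.0 and 88.5 CPM in F_LPS. The 3 groups covered nearly the same span, and the lowest and highest of the 29 libraries differed 1.44-fold. The second, ENSCJPG00005005099, had an SD of 0.134 at a higher read level. Its lowest, median and highest library stood at 270.4, 325 and 365 CPM in M_SAL, at 292, 343 and 375 CPM in M_LPS, and at 286, 317 and 361 CPM in F_LPS. Again the groups overlapped over most of their range. The log2 fold change of F_LPS over M_SAL, after scaling by TMM (trimmed mean of M-values, which sets libraries to a common level over most genes), was 0.10 (SE 0.087) for the first gene and 0.06 (SE 0.082) for the second.

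The first 10 genes by rank, with median levels of 49.2 to 689 CPM, had SDs of 0.132 to 0.145. Their log2 fold changes under LPS injection ran from -0.04 to 0.11, and the 95% intervals of all 10 lay between -0.23 and 0.31. For 6 of the 10 the interval lay inside a 1.2-fold change in either direction.

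**Figure D2:**
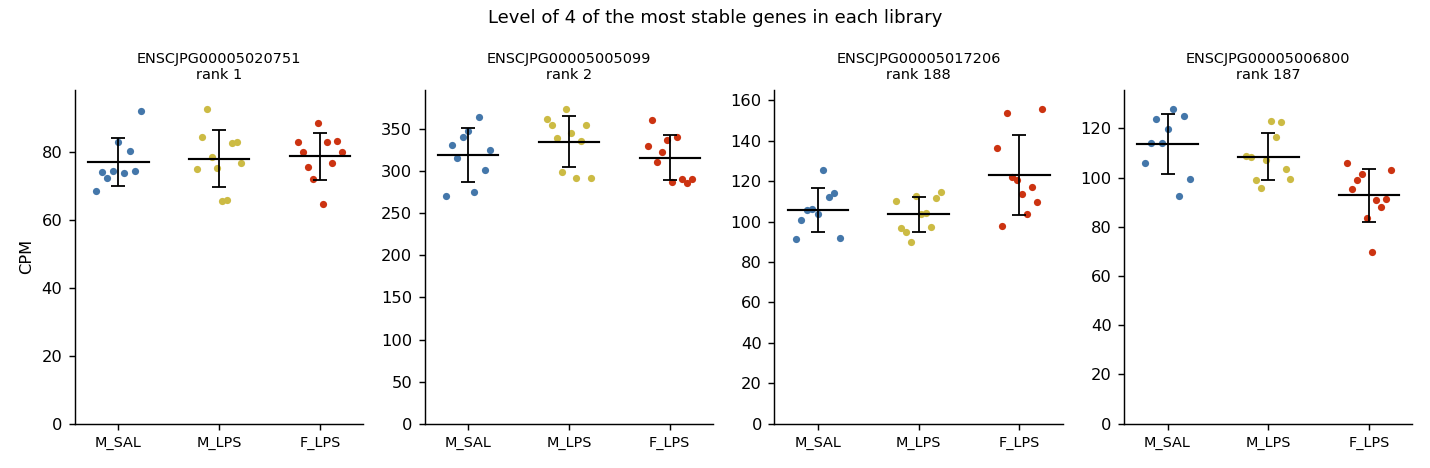
CPM in each library of the 2 genes with the smallest SD (ranks 1 and 2) and of the genes with the highest (rank 188) and lowest (rank 187) log2 fold change of F_LPS over M_SAL. Points are libraries, n = 9 in M_SAL and 10 in M_LPS and F_LPS, and bars show the mean and SD; the groups overlap in all 4 panels, and the mean of rank 188 is 123 CPM in F_LPS against 106 CPM in M_SAL.

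The effect of injecting the female is the question of F_LPS against M_SAL, since the males of both groups had received saline. Across all 9918 genes tested, edgeR called 229 genes at an adjusted p below 0.05, 169 higher and 60 lower, or 2.31%, and 162 of the 5852 window genes, or 2.77%. When libraries were scaled by their totals in place of TMM, the calls were 143 higher and 93 lower. All 200 stable genes were tested, and 1 of them was called, higher in F_LPS. Because small spread chose them, nothing can be read from that count, nor from the fact that their intervals were narrow. The log2 fold changes of the 200 ran from -0.22 to 0.30 with a median absolute value of 0.072, against 0.12 for the window and 0.17 for all tested genes. The estimate was above 0 for 116 genes and below 0 for 84, with a median of 0.017. That direction depended on the scaling, since the median was -0.05 with library totals and -0.02 with upper-quartile scaling.

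The 95% interval of the fold change lay inside 1.5-fold in either direction for all 200 genes, where 69.4% of the window and 44.8% of all tested genes met the same limit. Inside 1.2-fold it lay for 112 of the 200 genes, against 7.91% of the window. No bound of any interval exceeded 0.47 log2 units in size. For no gene of the 200 were the F_LPS and M_SAL libraries fully separated, where this held for 0.205% of the window.

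**Figure D3:**
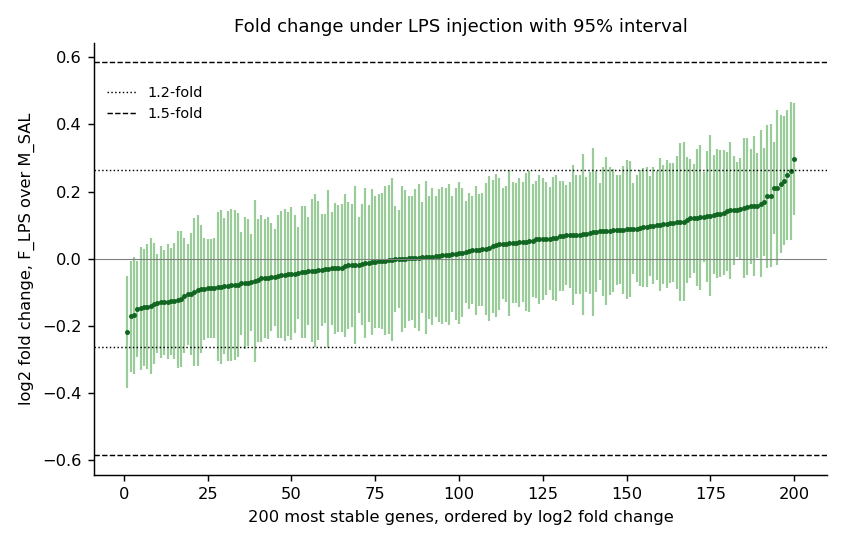
Log2 fold change of F_LPS over M_SAL (y axis) for the 200 most stable genes, ordered along the x axis by that value. Points are edgeR estimates, vertical lines their 95% intervals, and the dotted and dashed lines mark 1.2-fold and 1.5-fold; every interval stays between the dashed lines, and 112 stay between the dotted ones.

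The gene with the highest log2 fold change, and the only one of the 200 called, was ENSCJPG00005017206 at rank 188. Its lowest, median and highest library stood at 91.3, 106 and 126 CPM in M_SAL, at 89.7, 104 and 114 CPM in M_LPS, and at 98.0, 119 and 156 CPM in F_LPS. The F_LPS libraries reached higher, but the groups overlapped. These CPM values use library totals. With TMM scaling the difference was 1.23-fold, or 0.30 on the log2 scale (SE 0.082). With library totals, RLE or upper-quartile scaling the gene was not called. With each of the 29 libraries left out in turn, the estimate stayed between 0.27 and 0.34, and the call was lost in 19 of the 29 fits. It held without M_LPS replicate 1, 2, 3, 6, 7 or 8, F_LPS replicate 2, 7 or 9, or M_SAL replicate 8, and was lost without any other library. The gene with the lowest log2 fold change, ENSCJPG00005006800 at rank 187, had its lowest, median and highest library at 92.5, 114 and 128 CPM in M_SAL, at 95.9, 108 and 123 CPM in M_LPS, and at 69.7, 93.3 and 106 CPM in F_LPS. Its F_LPS libraries reached lower, again with overlap. The log2 fold change was -0.22 (SE 0.082), and the gene was not called.

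M_LPS against M_SAL asks what meeting an LPS-treated male does to a female that was not herself treated. The log2 fold changes of the 200 genes ran from -0.22 to 0.13, with a median absolute value of 0.045, against 0.097 for the window. At an adjusted p below 0.05, edgeR called none of the 200 and 0 of the 9918 genes tested (0%). At an unadjusted p below 0.05 it gave 1 of the 200 (0.5%), 427 of the 9918 tested (4.31%) and 227 of the window (3.88%). DESeq2 called 28 of all genes tested, 1 higher and 27 lower (0.282%, with no adjusted p given for 770), 14 of the window and 0 of the 200. With limma voom the counts at an adjusted p below 0.05 were 0 of the 200 and 0 of all tested genes. The 95% interval lay inside 1.5-fold for all 200, where 75.3% of the window and 48.7% of all tested genes met that limit, and inside 1.2-fold for 142, against 11.5% of the window.

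In F_LPS against M_LPS the treatment of both partners differed. It shares the F_LPS libraries with the first comparison and the M_LPS libraries with the second, so the values are set side by side only. The log2 fold changes of the 200 ran from -0.18 to 0.31, with a median absolute value of 0.071 against 0.14 for the window. All 200 intervals lay inside 1.5-fold (67.5% of the window and 43.3% of all tested genes) and 108 inside 1.2-fold (8.20% of the window). The groups overlapped for all 200, where 1.38% of the window had groups that did not overlap. In this comparison edgeR called 6.68% of all tested genes, 6.39% of the window and 3 of the 200, all higher in F_LPS by 1.16-fold to 1.24-fold, at ranks 43, 67 and 188. The call at rank 188 held with each library left out in turn, while those at ranks 43 and 67 were lost in 22 and 14 of the 29 fits.

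The small SD limits how far the groups can lie apart. It also bears on the share of variance between groups, since a large difference between groups raises the SD that ranked the genes. The shares are therefore given as a description. The share between the 3 groups was a median of 6.23% over the 200 genes, from 0.0895% to 42.1%, and 6.40% over the window. It exceeded 25% for 13 of the 200, or 6.5%, and for 10.4% of the window. Within groups the median SD of the 200 was 0.172 in M_SAL, 0.166 in M_LPS and 0.177 in F_LPS, against 0.345, 0.302 and 0.355 for the window. The SD was larger in F_LPS than in M_SAL for 104 of the 200 (52% against 51.9% of the window), and larger than in M_LPS for 113 (56.5% against 64.9%).

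The remaining variation of the 200 genes was partly shared. Over their 19900 pairs the median Pearson r of log2(CPM + 1) across the 29 libraries was 0.18, with the middle 90% of pairs between -0.23 and 0.54. All pairs share the same libraries and library totals. The first principal component carried 22.1% of the variance of the 200. The libraries that most often held the lowest value of a gene were M_LPS replicate 7 (44 genes), F_LPS replicate 8 (40 genes) and F_LPS replicate 6 (22 genes). The highest value was most often in M_SAL replicate 3 (32 genes) and M_LPS replicate 3 (22 genes). By group, on library totals, the lowest value lay in F_LPS for 97 genes, in M_LPS for 65 and in M_SAL for 38. Within F_LPS, replicates 8, 6 and 9 held it for 40, 22 and 13 genes. The highest value lay in M_SAL for 95 genes, in M_LPS for 55 and in F_LPS for 50. No share over the window is given beside these counts, which are a description. Averaged over the 200 genes, M_LPS replicate 7 lay 0.20 log2 units below the mean of all libraries (mean deviation -0.203), F_LPS replicate 6 at -0.149 and F_LPS replicate 8 at -0.14. The other 26 libraries lay between -0.0779 and 0.14. M_LPS replicate 7 also had the largest share of reads in the 10 most abundant genes, 33.3% against 17.0% to 30.3% in the other 28 libraries, and the most genes detected, 14192. F_LPS replicate 8 had the fewest genes detected, 11997. The 169 genes called higher in F_LPS than in M_SAL took 8.25% of the reads of F_LPS replicate 8 and 7.79% of F_LPS replicate 6. These were the largest shares of any library, while M_LPS replicate 7 was at 1.48%. F_LPS replicates 4, 3 and 9, with shares of 5.92%, 5.60% and 5.08%, had mean deviations of -0.0779, 0.0101 and -0.0663. F_LPS replicates 10, 7, 5, 2 and 1, with shares of 2.70% to 4.78%, lay between 0.00803 and 0.0624. The part of these differences in the level of the 200 genes was not tested.

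The 200 genes were chosen for small spread by library totals, so a scaling factor taken from their mean stays close to 1 by construction, and its spread beside that of TMM is a description. Relative to library totals, the factor from the 200 genes ran from 0.869 to 1.10, with an SD of 0.0745 on the log2 scale, and the TMM factor ran from 0.776 to 1.15, with an SD of 0.126. The mean factor from the 200 genes was 1.02 ± 0.0349 (SD, n = 9) in M_SAL. It was 1.003 ± 0.0592 (SD, n = 10) in M_LPS, and F_LPS stood at 0.985 ± 0.0525 (SD, n = 10). These means differed by less than the SD within M_LPS or F_LPS. On the log2 scale F_LPS minus M_SAL was -0.0500, about as large as the SD of 0.0496 within M_SAL. An SD between libraries does not measure the uncertainty of a mean, and a shift of the factor with LPS was not tested. The 2 factors differed most in F_LPS replicate 8, by 0.23 log2 units, and in M_LPS replicate 7, by -0.19. When libraries were scaled to the 200 genes in place of TMM, edgeR called 236 genes in F_LPS against M_SAL (170 higher, 66 lower) in place of 229, and 214 genes were called under both. Log2 fold changes of all tested genes then shifted by a median of -0.02.

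**Figure D4:**
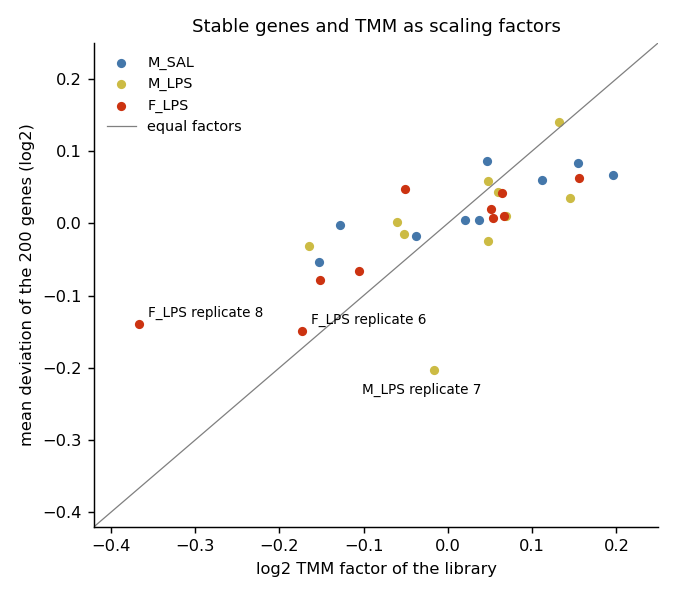
Each point is 1 library, coloured by group. The x axis is the log2 TMM factor and the y axis the mean deviation of the 200 stable genes in log2(CPM + 1); on the grey line both would scale a library equally, and F_LPS replicate 8 and M_LPS replicate 7 lie farthest from it, by 0.23 and -0.19 log2 units.

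Which genes count as most stable depended on that scaling. Ranked on CPM with TMM, 101 of the 200 genes (50.5%) stayed in the list, and 165 stayed within the first 10% of the window. The most stable gene by library totals, ENSCJPG00005020751, ranked 91 with TMM at an SD of 0.165, ENSCJPG00005005099 ranked 74 at 0.158, ENSCJPG00005006800 ranked 189, and ENSCJPG00005017206 ranked 533. Of the first 10 genes, 7 were in both lists. The 101 genes in both lists had SDs of 0.132 to 0.196 by library totals and 0.114 to 0.180 with TMM, median levels of 31.2 to 720.5 CPM, and log2 fold changes of -0.22 to 0.21 under LPS injection, with 71 of the 101 intervals inside 1.2-fold. The mean of all 5852 window genes varied with an SD of 0.105 by library totals and 0.0326 with TMM, while the mean of the 200 varied by 0.0745 and 0.0869. TMM sets libraries to a common level over most genes, so the small SD of the window mean with TMM follows from the scaling.

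The mean of several of the 200 genes varied less over the libraries than the first gene alone. No list of other genes of these sizes is given for comparison. In log2 units, the SD over the 29 libraries of the mean of the first 1, 3, 10, 50 and 200 genes was 0.132, 0.0937, 0.0696, 0.0689 and 0.0745 by library totals. With TMM the same means varied by 0.165, 0.140, 0.112, 0.0950 and 0.0869. The F_LPS mean minus the M_SAL mean was 0.03, -0.03, -0.02, -0.05 and -0.05 by library totals. With TMM it was 0.10, 0.04, 0.05, 0.02 and 0.02. By library totals the difference of the first 50 genes exceeded the SD of 0.039 within M_SAL, but not that of 0.069 within F_LPS. These genes were chosen for small spread in the same libraries, so the values describe these libraries only.

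To describe stability in libraries that took no part in the choice, the same rule was applied to the 10 M_LPS libraries alone, and the 200 genes so chosen were followed in F_LPS and M_SAL. This list shared 72 genes, 36% of each list, with the 200 chosen over all libraries. Its median SD was 0.138 in the M_LPS libraries that chose it. In the 19 other libraries it was 0.24, with a range of 0.130 to 0.849, against 0.363 for all genes in the same level range. Within M_SAL alone the median SD of the list was 0.226, and within F_LPS alone 0.241, against 0.345 and 0.356 for the range. The list was thus wider than 0.138 in M_SAL as well, where neither bird had received LPS. In the 19 other libraries 176 of the 200 genes (88%) were below the median SD of that range, and 81 were among its lowest 10%. The list was not matched to the range in read level. In the CPM window the median SD fell from 0.404 at 10 to 50 CPM to 0.283 at 200 to 500 CPM. Chosen in the 19 saline-injected libraries instead, 200 genes had a median SD of 0.163 there and 0.215 in F_LPS, where all genes in the range had 0.355, and 197 of the 200 lay below that median. For this list no saline-injected library lay outside the choice. Its rise in F_LPS therefore cannot be told apart from leaving the libraries that chose it. This list was not matched in read level either.

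Some genes that were stable in M_LPS libraries changed with LPS injection. In a fit of F_LPS and M_SAL alone, which used no library of the choice, 6 of the 200 genes passed an adjusted p of 0.05 with edgeR, 5 higher and 1 lower, or 3%. The same fit called 1.08% of all tested genes and 1.28% of the genes in the level range. In the fit of all 29 libraries the count was 10 of 200, or 5%, beside 2.31% of all tested genes. There the M_LPS libraries that chose the list enter the estimate of spread, so that count is a description. The count in the fit of 2 groups depended on single M_SAL libraries. It was 3 without M_SAL replicate 2, 8 or 9, 2 without M_SAL replicate 5 or 7, 1 without M_SAL replicate 6, and 4 to 9 without any other library; the share of all tested genes called in these fits ran from 0.594% to 1.92%. Without M_SAL replicates 1 and 3 together, 8 of the 200 (4%) and 3.545% of all tested genes were called, and the list then lay close to the background. The median half-width of the 95% interval was 0.24 log2 units for the list and 0.44 for all tested genes, so a smaller change could pass the test in the list. The interval lay inside 1.5-fold for 180 of the 200 genes (90%), where 45.5% of all tested genes and 67.2% of the level range met that limit. Read level was not matched in this comparison.

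Of the 6 genes, ENSCJPG00005014939 and ENSCJPG00005004104 are given in full, chosen after their values were seen. ENSCJPG00005014939 ranked 88 in M_LPS alone, where its lowest, median and highest library stood at 547, 633 and 729.8 CPM. The same values were 534, 636 and 720.5 CPM in M_SAL and 651, 836 and 1125 CPM in F_LPS. Of the 10 F_LPS libraries 9 lay above every M_SAL library, and F_LPS replicate 2 was the exception. With TMM scaling, its level in F_LPS rose 1.45-fold over M_SAL (0.54 on the log2 scale, SE 0.11, edgeR adjusted p = 0.0215). The gene missed the threshold only without M_SAL replicate 6 (adjusted p = 0.0548), among 19 fits with edgeR that each left out 1 library, and passed without M_SAL replicates 1 and 3 together (adjusted p = 0.0353). Over all 29 libraries it ranked 1348, with an SD of 0.27. ENSCJPG00005004104 ranked 134 in M_LPS alone, where its lowest, median and highest library stood at 118, 135 and 164 CPM. The same values were 116, 134 and 158 CPM in M_SAL and 74.1, 101 and 118.5 CPM in F_LPS. Of the 10 F_LPS libraries 9 lay below every M_SAL library, and F_LPS replicate 1 was the exception. With TMM scaling the gene fell by 0.40 on the log2 scale (SE 0.086, edgeR adjusted p = 0.022). It missed the threshold only without M_SAL replicate 7 (edgeR adjusted p = 0.0504). Without M_SAL replicates 1 and 3 together the edgeR adjusted p was 0.0206. On the same scale the other 4 genes were 1.39-fold to 2.14-fold higher in F_LPS. The largest change, 2.14-fold, was at rank 17 in M_LPS alone, in a gene with an M_LPS range of 85.7 to 113 CPM. Its range was wider in M_SAL, from 75.5 to 234.8 CPM, and in F_LPS it was 132 to 394.5 CPM. Of the 10 F_LPS libraries 6 lay above every M_SAL library. The gene missed the threshold in 7 of the 19 fits, each without 1 of the M_SAL replicates 2 and 4 to 9. The edgeR adjusted p was 0.0581 at most. The gene at rank 155 passed in 16 of the 19 fits and missed the threshold without M_SAL replicate 5, 6 or 8. The gene at rank 170 passed in 11 of the 19, missing it without M_SAL replicate 2, 5, 6, 7 or 9 or F_LPS replicate 4, 5 or 8, and also missed it without M_SAL replicates 1 and 3 together (edgeR adjusted p = 0.0619). The gene at rank 76 passed in only 6 of the 19, those without M_SAL replicate 1 or 3 or F_LPS replicate 1, 2, 7 or 9, with an adjusted p of up to 0.0976 in the others.

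**Figure D5:**
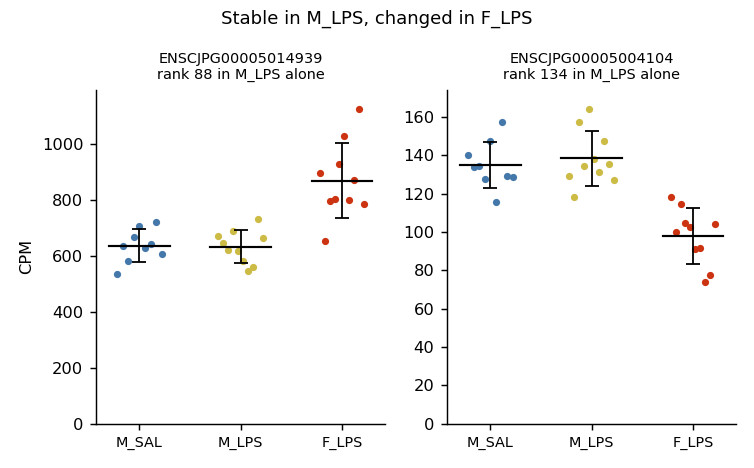
CPM in each library (y axis) of a gene higher and a gene lower in F_LPS that were among the 200 most stable genes of the M_LPS libraries, at ranks 88 and 134. Points are libraries, n = 9 in M_SAL and 10 in M_LPS and F_LPS, and bars show the mean and SD; 9 of 10 F_LPS libraries lie above every M_SAL library in the left panel and below every M_SAL library in the right panel.

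Genes chosen in M_LPS alone were also averaged as references for F_LPS and M_SAL. No list of other genes of these sizes is given beside them. A smaller SD of the mean therefore cannot be read as particular to these genes. The most stable gene of M_LPS alone varied with an SD of 0.275 log2 units over the 19 other libraries by library totals, and the mean of the first 3, 10, 50 and 200 genes by 0.112, 0.0743, 0.0736 and 0.0857. The mean level in F_LPS minus that in M_SAL was -0.08 for the first gene, 0.05 for the first 3, -0.06 for the first 10, -0.03 for the first 50 and -0.06 for all 200. With TMM the SDs for 1, 3, 10, 50 and 200 genes were 0.336, 0.218, 0.131, 0.0812 and 0.0673. TMM sets libraries to a common level over most genes, so a small SD of a mean of many genes follows in part from the scaling. On the TMM scale the differences between the group means were -0.01, 0.12, 0.01, 0.04 and 0.02, so the sign for the first 10, the first 50 and all 200 genes turned with the scaling. By library totals, the differences were within 1 SD of the libraries of either group for all but the first 10. The F_LPS mean of the first 10 lay 0.06 below an M_SAL mean with an SD of 0.055. An SD between libraries does not measure the uncertainty of a mean, and a shift of these means with LPS was not tested.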

How the data were processed

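Per the labels' protocols, red cell RNA was extracted with Qiazol, cleaned on a column and treated with DNase, and NEBNext Ultra libraries were made from it. The table deposited by the authors holds whole-number read counts, not normalized, for each Ensembl gene. Tools listed in the submitters' processing notes are CASAVA 1.8.2, HISAT2 and DESeq2. The sources used here do not give the counter, genome build, annotation or strand setting, so overlapping genes and near-identical copies could not be told apart. Libraries were grouped by the treatment labels and numbered in accession order. The labels do not state outright that each library is a separate bird. One title number recurs, with other letters, within F_LPS, and one between M_LPS and F_LPS, and what the letters stand for is not given. The p-values therefore measure the spread between these libraries. No library repeated another, since chi-square divided by its degrees of freedom was 27.5 or more in all 406 pairs.

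The members and lists were chosen with earlier results of these data known. CPM used column totals and a pseudocount of 1. Genes kept by filterByExpr entered edgeR 4.0.16 (R 4.3.3) and its quasi-likelihood test (TMM, robust, 3 groups in 1 fit, Benjamini-Hochberg adjustment at 0.05). The 95% intervals used standard errors obtained as the absolute log2 fold change over the square root of F. The counting variance was that of a Poisson count at the gene's mean count. The test and the choice rule were tested on simulated data. In the simulation of the choice rule, the planted stable genes had a clearly smaller spread than the others. It therefore checked the working of the rule and not this list of genes, which has no such step at its boundary. Identifiers printed are the 2 smallest SDs and the highest and lowest log2 fold change of F_LPS over M_SAL, with 2 exceptions stated in the text. The gene lists and cell type markers planned for the case that symbols were known were not used. Alternatives used DESeq2 1.42.0, limma 3.58.1, other scalings and filters, and leaving out libraries.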

Additional observations from a re-analysis of the deposited data

Results flagged for a closer look

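M_LPS replicate 7 lay far from the other 9 libraries of its group in 3 measures of the 200 stable genes. Their mean deviation was -0.203 log2 units there, and -0.0315 in the next library, a gap equal to 0.501 of the whole range in the group. They took 3.16% of its reads, against 3.63% in the next library, a gap of 0.528 of the range. Their root mean square deviation was 0.269, against 0.192 in the next library, a gap of 0.551 of the range. These 3 measures are taken from the same genes and are not independent. In all, 24 sets of library values were looked at, of which chance alone flags about 5%, or 1.2.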

How the results depend on the processing

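Of the 200 genes, 101 stayed with TMM, 97 with RLE scaling, 89 when ranked by the median absolute deviation, 118 when ranked in the 19 saline-injected libraries and 72 in the 10 M_LPS libraries; with each library left out in turn, 159 to 194 stayed. Their median SD was 0.163 when libraries were scaled to the 200 genes themselves, and 0.179 to 0.184 with 1 library left out. The number of the 200 called in F_LPS against M_SAL was 1, and it was 0 with RLE, upper-quartile or total scaling, with scaling to the 200 genes, with no filter, with limma voom and in a fit of F_LPS and M_SAL alone, 2 with DESeq2, and 0 to 1 with each library left out. Over all genes tested in each fit, the calls in this comparison were 229 (2.31%), 223 with RLE (2.25%) and 254 with upper-quartile scaling (2.56%). Total scaling and scaling to the 200 genes gave 236 each (2.38%), no filter 247 (1.45%) and limma voom 261 (2.63%). The count was 350 with DESeq2 (3.53%) and 101 with F_LPS and M_SAL alone (1.08%). It was 455 without M_SAL replicates 1 and 3 (4.49%), and 169 to 300 with each library left out (1.71% to 2.99%). Of the genes chosen in M_LPS alone, 5% were called in the fit of all 29 libraries, beside 2.31% of all tested genes. The M_LPS libraries that chose the list enter the estimate of spread in that fit, so the share is a description. With each library left out of that fit, 4% to 6% were called. In the fit of F_LPS and M_SAL alone 3% were called, beside 1.08% of all tested genes. With each library left out of this second fit, the list ran from 0.5% to 4.5% and all tested genes from 0.594% to 1.92%. The alternatives to the fit for this list were added after seeing the data. The 95% intervals of all 200 genes in F_LPS against M_SAL stayed inside 1.5-fold under every alternative run. Small spread in these libraries chose the genes, so this is a description and not a test. No paired analysis was possible because replicates were numbered in accession order and the library titles of any pair of groups share fewer than 2 numbers. Without symbols no list, marker or length could be applied.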

Other observations

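Among the 19900 pairs of stable genes, the tightest ratio was between the genes at ranks 64 and 79, chosen after their values were seen. The SD of its log2 value over the 29 libraries was 0.0925, smaller than that of the most stable single gene, and 41 pairs had a ratio SD below that gene's 0.132. A steady ratio does not show that either gene holds its level. The log2 fold changes of F_LPS over M_SAL were 0.15 at rank 64 and 0.14 at rank 79, and neither gene was called. The ratio of their CPM was 1.27 ± 0.0471 (SD, n = 9) in M_SAL. It was 1.27 ± 0.104 (SD, n = 10) in M_LPS. In F_LPS it was 1.28 ± 0.0884 (SD, n = 10), and it ran from 1.11 to 1.45 over all libraries. The most variable pair had a ratio SD of 0.343, and the median pair 0.229. The 10 most abundant genes of the table, which lie above the CPM window, had SDs of 0.247 to 0.416.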
